A study of Rattus norvegicus with 112 samples.

Results

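Fos is described here in primary cultures of rat cortical neurons that were exposed to NMDA, nicotine or the compound 4R. The gene was chosen by its rise in signal under NMDA in these arrays. The array read 1263 probe sets beside 59 hybridization controls, and all probe sets annotated to Fos alone were taken, which were 3: X06769cds_g_at, X03347cds_g_at and X06769cds_at. The probe annotation gives accession X06769 for X06769cds_g_at and X06769cds_at, and K02712 for X03347cds_g_at. The gene (ID 314322) lies on chromosome 6 from 110852188 to 110855054 in the rat assembly GRCr8. X06769cds_g_at had the highest mean signal over the 112 arrays and is the probe set meant wherever none is named. The 3 are readings of 1 transcript on the same arrays and are not replicates of each other.

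Fos encodes a basic leucine zipper protein that pairs with a Jun protein to form the transcription factor AP-1. It is an immediate early gene: its promoter is held ready, and calcium entry into a neuron, for example through NMDA receptors, leads to its transcription through the kinases that act on CREB and on SRF with its Elk partners. The mRNA and the protein are short-lived, and Fos is widely used as a mark of recently active neurons.

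The arrays fall into 10 runs, and each run was compared only with its own untreated controls unless the text says otherwise. In the continuous experiment neurons received 1 mM NMDA for 10, 30, 60, 180 or 360 min (3 arrays for each time and 3 controls, replicates 2 to 4). In the pulse experiment 1 mM NMDA was given for 10, 30 or 60 min and washed off, and the cells were collected 24 h later (4 arrays a group). A second pulse set had 1 array a group, and 4 pulse samples were read on repeat arrays. In the crossed experiment neurons had no treatment, 10 uM nicotine for 18 h, 1 mM NMDA for 60 min, or both (3 arrays each). In the washed-out experiment they had nothing, 10 uM nicotine for 18 h, 1 mM NMDA for 30 min, or both (5 arrays each). The treated neurons were then washed and collected 24 h later. No wash was recorded for the controls of the pulse and washed-out experiments, and its part in the differences was not tested. All 20 washed-out samples were run again, and the labels give an oven failure as the reason. The remaining experiments were 10 uM nicotine for 15 min followed by fresh medium for 45 min, 2 uM 4R for 18 h, and the same 4R exposure followed by 24 h without it, each with 3 treated and 3 control arrays. The labels call 4R a non-competitive antagonist of nicotinic receptors. The cells were mixed primary cultures read in bulk, so fewer cells of a type and less RNA per cell cannot be told apart.

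The trimmed mean signal lay between 2503 and 2513 on all 112 arrays. Of 10 neuronal markers on the array, 8 were among the brightest probe sets, with a median percentile of 90.2 over the 10, and Camk2a and Nefh were lower, at percentiles 26.4 and 43.3. The 5 astrocyte markers had a median percentile of 68.7, with Glul at 93.8 and Slc1a3 at 90.1, so glial transcripts were present beside the neuronal ones. The 4 oligodendrocyte markers had a median percentile of 66.3, and Itgam, the 1 microglial marker measured, was at 26.9. In each run, arrays were set apart where their median correlation with the rest of the run was unusually low, by more than 3 scaled MADs. The widest departures were controls 3 and 4 of the repeat washed-out run, at -0.02 and 0.51. The other such arrays were the 10 min replicates 2 and 3 and the 360 min replicate 3 of continuous NMDA, the 10 min replicate 3 and the 60 min replicate 4 of the pulses, replicate 2 of the control and of NMDA in the crossed experiment, replicate 5 of nicotine with and without NMDA in the first washed-out run, and control 3 of nicotine for 15 min. Replicate 1 of the 30 min pulse carries 60 min in another field of its label.

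During continuous NMDA the Fos signal stood above every control from 30 min onward and was highest on single arrays at 180 min. In controls the signal was 4581, 6706 and 5104 in replicates 2, 3 and 4. After 10 min it was 5046, 8508 and 10444, and the treated and control arrays overlapped. After 30 min it was 17497, 13768 and 17569, so all 3 arrays lay above all controls.

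At 60 min the signal was 24023, 17237 and 25939. At 180 min it was 44104, 10840 and 45590, and at 360 min 28950, 13876 and 41586. Replicates 2 and 4 were thus close to each other at 30, 60 and 180 min, while replicate 3 was the lowest of the 3 arrays at each time from 30 min on.

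Relative to the control of the same number, replicate 2 was 3.82-fold higher at 30 min, 5.24-fold at 60 min, 9.63-fold at 180 min and 6.32-fold at 360 min. Replicate 4 ran alongside it at 3.44-fold, 5.08-fold, 8.93-fold and 8.15-fold for those times. In replicate 3 the folds were 2.05, 2.57, 1.62 and 2.07, from the highest control of the 3. This replicate also had the highest GAPDH 3' to 5' signal ratio of its group, a sign of RNA quality, in the controls (1.75), at 30 min (1.91), at 180 min (1.71) and at 360 min (2.25), but not at 10 min (2.27, against 2.41 in replicate 2) or 60 min (1.41). Its part in the lower Fos signal was not tested.

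**Figure D1:**
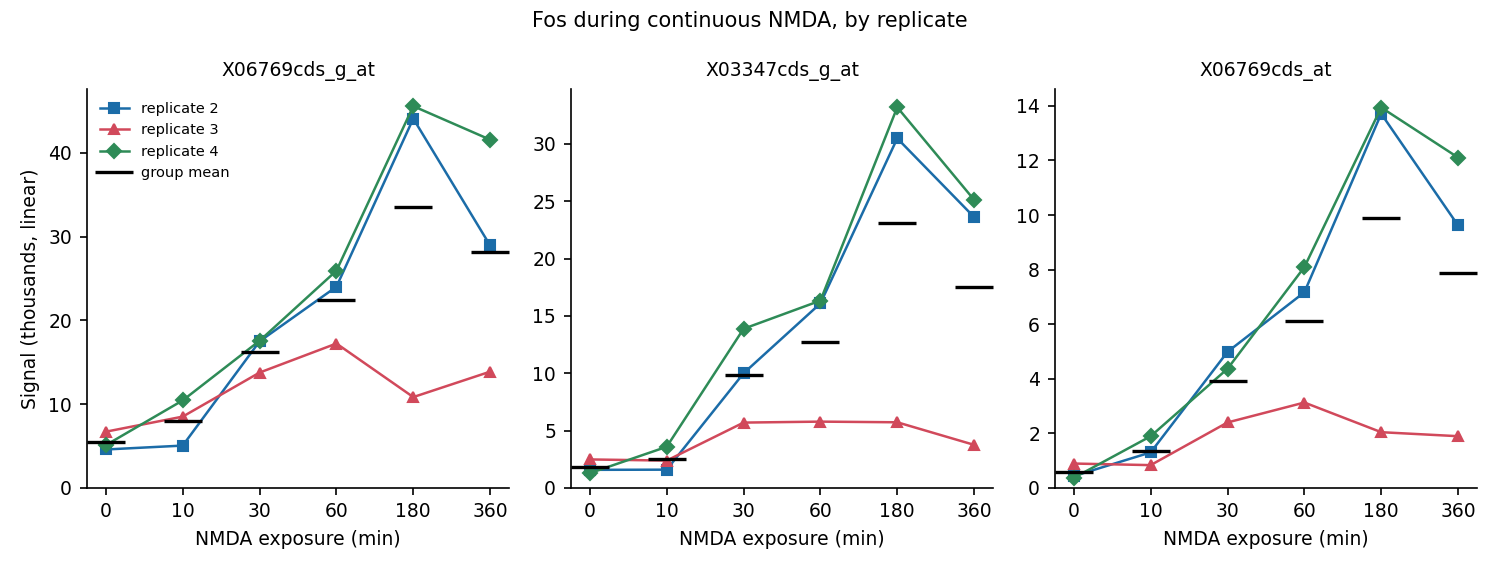
Signal (linear axis) of the 3 Fos probe sets against minutes of continuous NMDA, with a line for each of 3 replicates and a bar for the group mean; the time axis is not to scale. Replicates 2 and 4 climb to 44104 and 45590 on X06769cds_g_at at 180 min, while replicate 3 stays at or below 17237.

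The mean log2 difference from control was 0.50 (SE 0.46) at 10 min, 1.57 at 30 min, 2.02 at 60 min, 2.36 at 180 min and 2.23 at 360 min, with an SE of 0.46 each and n = 3 a group. These are descriptions without a test, because Fos was chosen with its NMDA response known. All 3 Fos probe sets separated from controls at 30, 60, 180 and 360 min, and 0 of 3 did at 10 min. Among all 884 probe sets tested, 3.73% lay wholly above controls at 10 min, 3.28% at 30 min, 3.17% at 60 min, 2.94% at 180 min and 4.19% at 360 min. Since NMDA against control chose the gene, nothing further is read from that contrast.

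The dimmer probe sets gave larger log2 differences from 30 min onward, and at 10 min X06769cds_at alone did. X03347cds_g_at gave 0.46, 2.38, 2.69, 3.33 and 2.88 at the 5 times (SE 0.71), and X06769cds_at gave 1.15, 2.64, 3.23, 3.60 and 3.33 (SE 0.71). On X06769cds_at the controls were 432, 890 and 367, against 13713, 2039 and 13941 at 180 min. On X03347cds_g_at the 180 min arrays read 30489, 5719 and 33199, with the same low replicate 3. On each probe set the mean difference grew from 30 to 180 min and was smaller at 360 min.

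Differences between NMDA times do not use the controls and were tested over all 884 probe sets with limma. They use the NMDA arrays on which Fos was chosen, as do the pulse steps below, so they are not independent of that choice. The step from 10 to 30 min was 1.07 on the log2 scale (95% interval 0.09 to 2.05, adjusted p = 0.495). All 3 Fos probe sets separated these groups, where 7.69% of all probe sets did so in that direction. The later steps were 0.45 from 30 to 60 min (-0.53 to 1.43, adjusted p = 0.999), 0.34 from 60 to 180 min (-0.64 to 1.32, adjusted p = 1.0) and -0.13 from 180 to 360 min (-1.11 to 0.85, adjusted p = 0.959). No step passed on any of the 3 probe sets, and 0 of 884 probe sets passed in each of the 4 steps. At an unadjusted p under 0.05 the same fit marked 76, 8, 9 and 52 probe sets. Within replicates the signal rose from 30 to 60 min in 3 of 3 and from 60 to 180 min in 2 of 3.

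At 24 h after a pulse of NMDA the Fos signal was still several-fold above control in each of the 4 replicates, and the shortest pulse gave the highest mean. Controls read 5667, 3375, 4024 and 3575 in replicates 1 to 4. After the 10 min pulse the arrays read 34052, 16175, 16748 and 14975. After 30 min they read 26134, 12495, 12697 and 15999, and after 60 min 23957, 12667, 10004 and 12781.

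Replicate 3 of the 10 min pulse, at 16748, had a summed signal of the 10 neuronal markers of 40959, against 117933 or more in controls, and a GAPDH 3' to 5' ratio of 2.61. The part of either in its Fos signal was not tested. Replicate 1 was the highest array of its group in all 4 groups, the control included. Over the control of the same number the fold was 4.16 to 6.01 after 10 min, 3.16 to 4.61 after 30 min and 2.49 to 4.23 after 60 min. The log2 differences were 2.23, 1.96 and 1.77 (SE 0.37, n = 4), given without a test. All 3 Fos probe sets separated from the controls after each pulse, where 3.62%, 3.28% and 3.62% of all probe sets lay wholly above theirs.

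X03347cds_g_at gave 3.10, 2.65 and 2.72 (SE 0.45), and X06769cds_at gave 2.68, 2.41 and 2.33 (SE 0.44). On X03347cds_g_at the controls read 2298, 1024, 632 and 1006 and the 10 min arrays 16616, 9816, 10087 and 6084. The order of the pulses was thus shared at its top, with the 10 min pulse highest on each probe set. On X06769cds_g_at the 60 min array was below the 10 min array in 4 of 4 replicates. On X03347cds_g_at and on X06769cds_at it was higher than the 10 min array in 1 of 4. The 30 min minus 10 min difference was -0.26 (95% interval -1.04 to 0.52, adjusted p = 0.998 with limma). The 60 min minus 30 min difference was -0.19 (-0.97 to 0.59, adjusted p = 0.997), so neither step passed. The replicate numbers follow the dates in the labels, where replicates 3 and 4 carry the same date and replicate 4 the added letters RC. With these numbers as a block in limma, the SE was 0.25 instead of 0.37. Neither step passed there either (adjusted p = 0.994 and 0.995). The 60 min against 10 min difference was not tested.

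**Figure D2:**
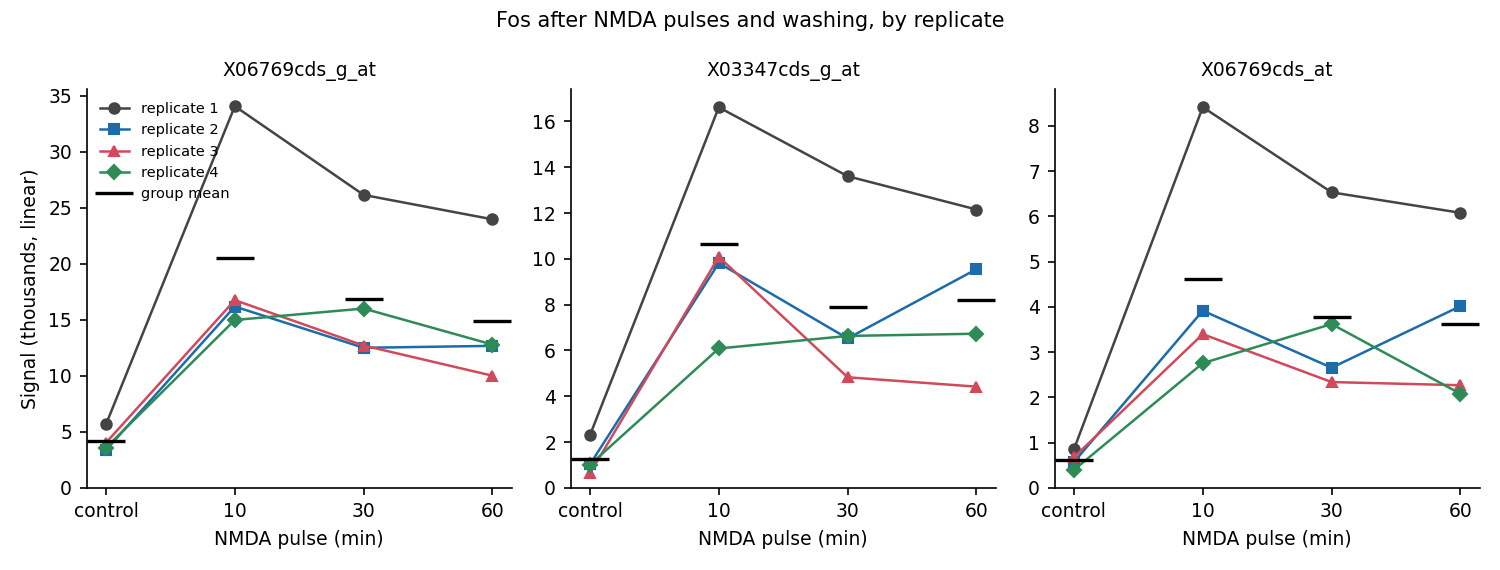
Signal (linear axis) of the 3 Fos probe sets in controls and 24 h after NMDA pulses of 10, 30 and 60 min, with a line for each of 4 replicates and a bar for the group mean. On X06769cds_g_at the 12 treated arrays read 10004 or more and the 4 controls 5667 or less.

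The second pulse set had 1 array a group and so no replicate check. It read 2361 in the control, 12883 after 10 min, 11854 after 30 min and 10483 after 60 min, with the shortest pulse highest on this probe set and on X06769cds_at. On X03347cds_g_at the 30 min array was highest, at 7354 against 7168 after 10 min. The repeat arrays of the pulse samples read 12669 for replicate 4 of the 10 min pulse, 9559 for replicate 3 of the 30 min pulse and 9728 for replicate 4 of the 60 min pulse. The fourth repeat array held the values of its first array within 0.05 on all 1322 probe sets, so that pair is 1 reading. Replicate 4 of the 60 min pulse had a GAPDH 3' to 5' ratio of 12.3 on its first array, the highest in the series. Without the arrays that stood apart the pulse differences were 2.29, 1.96 and 1.81.

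In the crossed experiment 60 min of NMDA gave a tight rise, and nicotine made no detectable difference to it. Controls read 2956, 4112 and 3473, and NMDA alone 13405, 13799 and 13280. With nicotine the arrays read 3451, 3150 and 2862 without NMDA and 11684, 14225 and 15106 with it. Both groups with NMDA lay wholly above both groups without it.

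NMDA against control was 1.94 on the log2 scale and NMDA in nicotine 2.09 (SE 0.17, n = 3), given without a test. The other probe sets gave 2.67 and 2.73 (X03347cds_g_at) and 2.99 and 2.77 (X06769cds_at). All 3 separated in both contrasts, where 4.98% and 6.45% of all probe sets lay wholly above. The SE was under that of the continuous experiment, where 60 min of NMDA gave 2.02 (SE 0.46).

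Nicotine for 18 h, which activates nicotinic acetylcholine receptors, gave a Fos difference of -0.14 (95% interval -0.51 to 0.22, adjusted p = 0.903 with limma). Within NMDA-treated cultures nicotine gave 0.01 (-0.36 to 0.38, adjusted p = 1.0). The interaction, the NMDA effect in nicotine minus that without, was 0.15 (-0.36 to 0.67, adjusted p = 0.997). A missed threshold does not exclude differences inside these intervals, and the intervals state what 3 arrays a group could resolve. In each of these 3 comparisons 0 of 884 probe sets passed, and 40, 14 and 16 had an unadjusted p under 0.05.

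In the washed-out experiment the mean Fos signal 24 h after a 30 min NMDA pulse was higher than control in both runs. The rise was smaller in the repeat run with all its arrays kept, and the groups overlapped. Controls of the first run read 4400, 5252, 4522, 8540 and 3596 in replicates 1 to 5. NMDA arrays read 8742, 10907, 8438, 9924 and 6162. The groups overlapped through control 4, and the other 4 controls lay below every NMDA array.

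The first run gave a log2 difference of 0.78 (SE 0.24, n = 5), with 1.13 (SE 0.32) on X03347cds_g_at and 1.06 (SE 0.35) on X06769cds_at. As for the other NMDA contrasts, these are given without a test.

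The repeat run read 4687, 5450, 15605, 11806 and 4657 in controls and 6633, 11438, 9796, 11860 and 6989 after NMDA. Controls 3 and 4, the arrays that stood furthest apart, were also the 2 highest Fos readings of their group. Their median signals over all probe sets were 1280 and 1376, against 524 to 608 in the other 3 controls, and the summed signal of the 10 neuronal markers reached down to 47119 among the controls of this run, against 122091 or more in the first run. With them the difference was 0.29 (SE 0.37), and without the 2 arrays it was 0.88 (SE 0.30). Quantile normalization of all 20 arrays turned the sign, to -0.13 (SE 0.48). On X03347cds_g_at the mean signal of the repeat run was 3247 in controls and 5236 after NMDA. On X06769cds_at it was 2015 in controls, with control 4 at 7051, and 1957 after NMDA.

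Apart from those 2 controls the runs gave similar Fos readings for the samples of the same group and number. Over the 18 samples the repeat signal was 0.759 to 1.29 times the first, with a median of 1.04. For X03347cds_g_at the ratio was 0.729 to 1.65 and for X06769cds_at 0.438 to 1.44. Control 3 read 3.45 times its first value on X06769cds_g_at, and control 4 read 3.66 times its first value on X06769cds_at.

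Neurons given both nicotine and NMDA read 9919, 8844, 11536, 12576 and 5966 in the first run and 9688, 8410, 11306, 14203 and 6221 in the repeat. Nicotine alone read 4414, 5779, 4176, 8807 and 5532 in the first run and 3697, 5472, 3960, 9821 and 5021 in the repeat. Replicate 4 was the highest in both groups and both runs. The NMDA difference within nicotine was 0.77 (SE 0.24) in the first run and 0.86 (SE 0.37) in the repeat.

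Nicotine against control was 0.14 in the first run (-0.37 to 0.64, adjusted p = 0.806) and -0.49 in the repeat (-1.26 to 0.28, adjusted p = 0.409), and 0.09 in the repeat without controls 3 and 4. Within NMDA, nicotine gave 0.12 in the first run (-0.38 to 0.63) and 0.08 in the repeat (-0.69 to 0.85). The interaction was -0.01 in the first run (-0.73 to 0.71, adjusted p = 0.992) and 0.57 in the repeat (-0.51 to 1.65, adjusted p = 0.736). No nicotine comparison of the washed-out experiment passed for Fos in either run. Of all probe sets 0.339% passed for nicotine against control in the first run, and 0 did in the other nicotine comparisons of both runs, where nicotine against control in the repeat had 187 at an unadjusted p under 0.05 in limma.

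**Figure D3:**
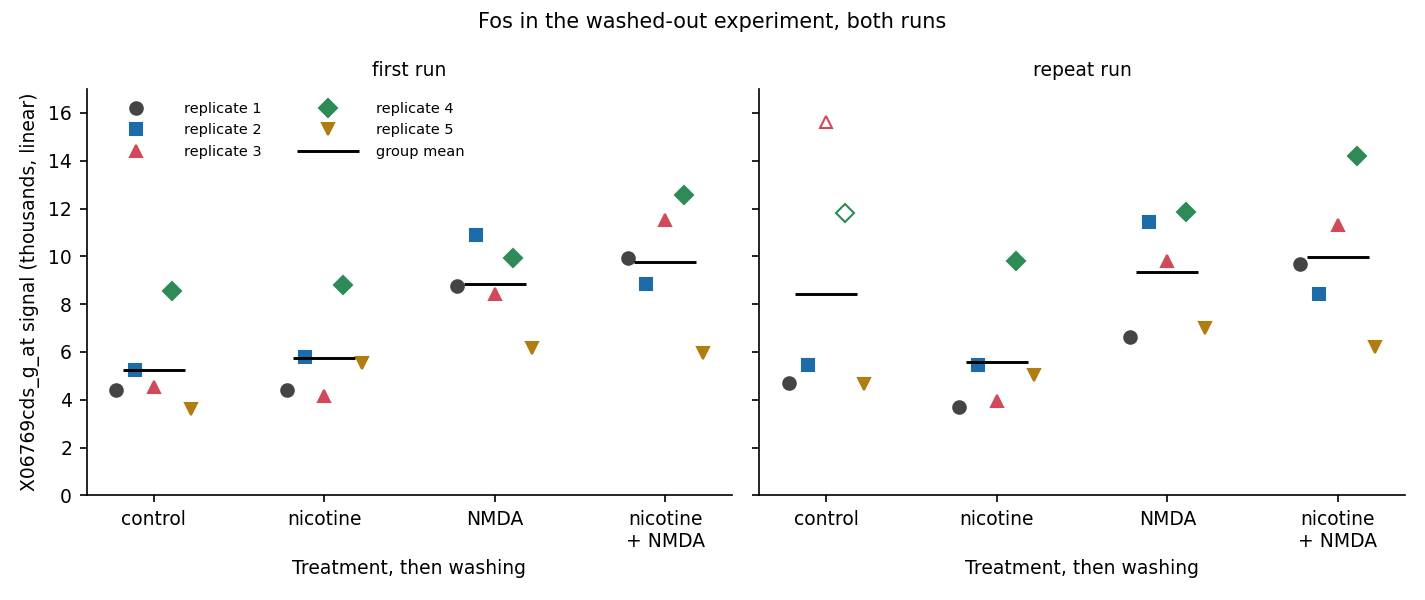
X06769cds_g_at signal (linear axis) on each array of the washed-out experiment, first run on the left and repeat run on the right, with bars at group means and open symbols for the 2 controls that stood apart. Readings repeat between runs except for controls 3 and 4, which move from 4522 and 8540 to 15605 and 11806.

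A 30 min pulse followed by 24 h was thus measured in 3 experiments. The log2 difference was 1.96 in the pulse experiment, and 0.78 and 0.29 in the first and repeat washed-out runs, and the single arrays of the second pulse set read 11854 against 2361. The repeat washed-out run minus the pulse experiment was -1.67 (SE 0.54), and -1.09 without the arrays that stood apart. This contrast was added after the values had been seen and is given without a test. The experiments were read in different runs, so the run and the experiment cannot be told apart.

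After brief nicotine and 4R no Fos difference passed the test, and the level of Fos in the brief-nicotine experiment was high in treated and untreated neurons alike. After 15 min of nicotine and 45 min of fresh medium the arrays read 16705, 16980 and 15741, against 12357, 18047 and 14137 in controls. The difference was 0.17 (95% interval -0.12 to 0.45, adjusted p = 1.0 with limma). The other probe sets gave 0.17 and 0.02.

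After 18 h of 4R the arrays read 3338, 5015 and 5468, against 3237, 5947 and 4423 in controls. The difference was 0.03 (-0.61 to 0.68, adjusted p = 1.0), and X06769cds_at had the opposite sign at -0.41 (-1.22 to 0.40). With the replicate numbers as a block in limma the SE of the 0.03 was 0.13 instead of 0.27, and it did not pass (adjusted p = 0.970). With 24 h of washing after 4R the arrays read 4759, 4252 and 3884, against 4546, 5366 and 4641, a difference of -0.17 (-0.60 to 0.26, adjusted p = 0.999), and 2 of the 3 treated arrays lay below every control. In these 3 comparisons 0 of 884 probe sets passed with limma, and 29, 20 and 14 had an unadjusted p under 0.05.

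Set side by side, the untreated groups of the other runs each had a lower median Fos signal than that of the brief-nicotine run. The other 27 control arrays had a median of 4581 and ranged from 2361 to 15605, the top being control 3 of the repeat washed-out run. Without controls 3 and 4 of that run the highest of the remaining 25 was 8540, and all 3 brief-nicotine controls lay above it. The median was 3.09 times that of the other controls, and 4.83 times on X03347cds_g_at and 4.47 times on X06769cds_at. Among all 1263 probe sets 1.19% had every brief-nicotine control above the other 25, and the median ratio over all probe sets was 0.964.

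Other immediate early genes were set beside Fos in the same controls. Nr4a1, an orphan nuclear receptor, was 7.51 times the other controls by median, with 6233, 10486 and 11470 as its 3 values in rising order, against 971 to 4472. Egr1, a zinc finger factor, was 3.20 times higher, at 70197 to 73399 against 3941 to 53731. Junb was 2.60 times the other controls, with 2 of its 3 values above all of them. Jun was 1.89 times the other controls, at 1572 to 2423, within their range of 111 to 2560. Jund was 1.49, Nr4a3 1.47, Fosl2 0.881, Ptgs2 0.624 and Crem 0.269 times the other controls. Fosl1 read 36.7 to 64.7 there, about the level of the dimmest probe sets, so no ratio is given. GAPDH 3' to 5' ratios in the brief-nicotine run were 1.38 to 1.57. The labels do not say whether the untreated neurons of that run also had their medium changed, so its part in these levels was not tested. This comparison was chosen after the values had been seen, arrays of different runs are not replicates of a group, and the 5 washed-out controls were read in both runs.

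**Figure D4:**
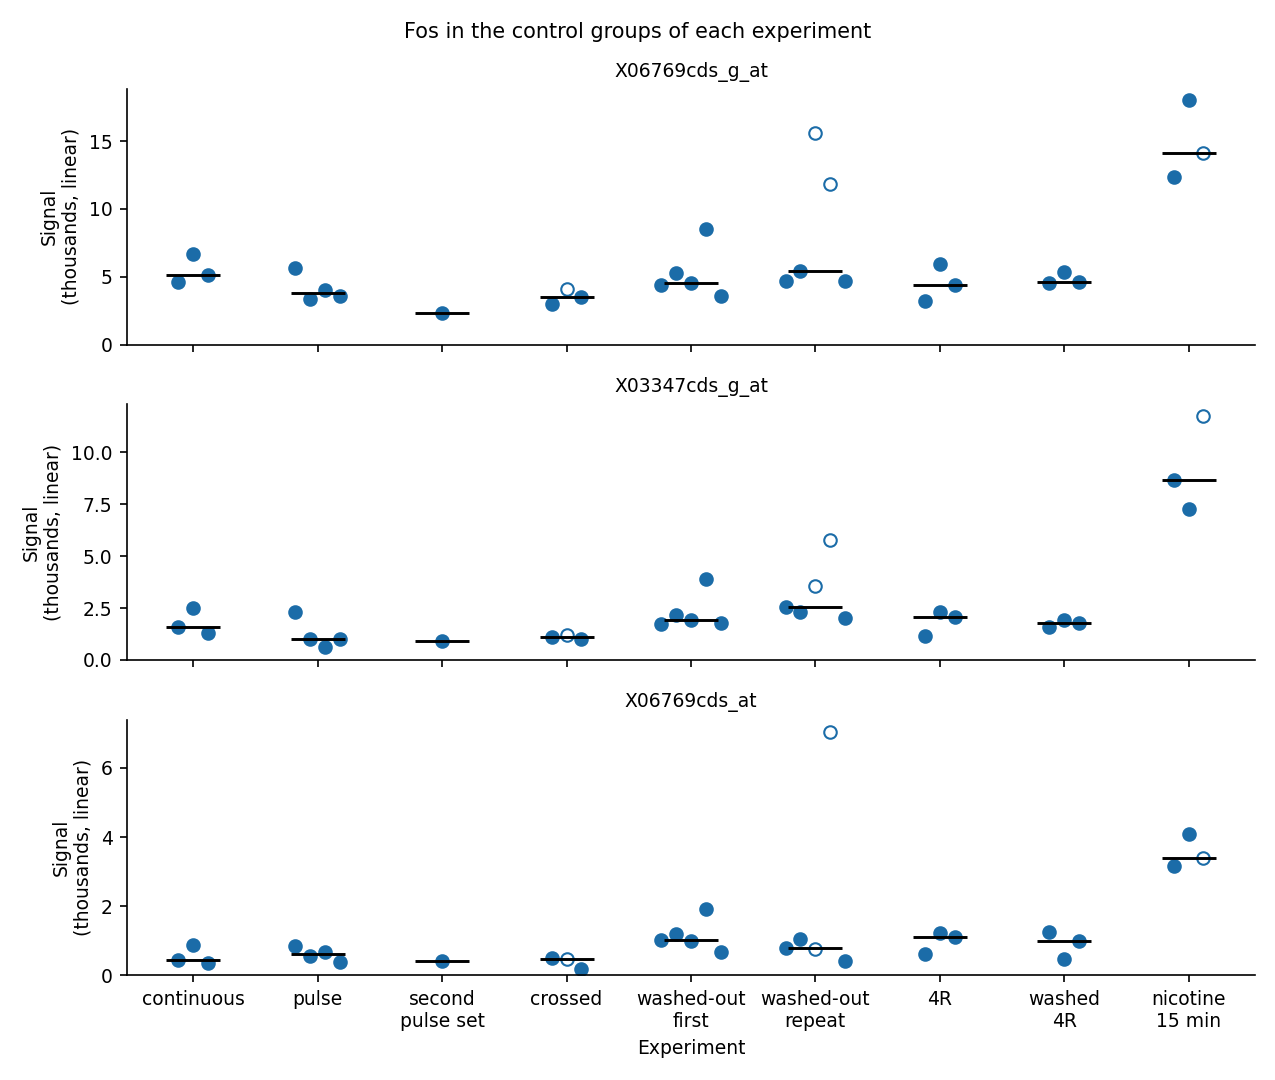
Signal (linear axis) of each Fos probe set on every control array, by experiment, with bars at medians and open circles for arrays that stood apart from their run. The 3 brief-nicotine controls read 12357 to 18047 on X06769cds_g_at, against 8540 or less on the 25 other controls that remain without controls 3 and 4 of the repeat washed-out run.

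Fos acts only with a partner, and of 14 AP-1 partners and relatives listed, 5 were on the array: Jun, Junb and Jund, which pair with Fos, and the Fos relatives Fosl1 and Fosl2. This list and those below were chosen with earlier results of these data known. Their calls therefore describe these arrays and are not independent support, also where the share of all probe sets is given. After the 10 min pulse 2 of the 4 tested rose, where 2.26% of all probe sets passed in either direction. Junb rose by 1.75 (SE 0.43, adjusted p = 0.0351) and Jun by 1.33 (SE 0.34, adjusted p = 0.0449). After the 60 min pulse Jun rose by 1.47 (adjusted p = 0.0273, limma), where 1.58% of all probe sets passed, and after the 30 min pulse 0 of 4 passed, where 1.36% did.

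The replicate numbers of the pulse run follow the dates in its labels. With them as a block in limma Junb also passed after 30 min (1.52, adjusted p = 0.0224 with the block and 0.121 without) and after 60 min (1.39, adjusted p = 0.0324 with and 0.149 without). Fosl2 was 1.78, 1.72 and 1.37 after the 3 pulses and did not pass. The list medians were 1.54, 1.34 and 1.38, against -0.04, -0.06 and -0.11 over all probe sets. These calls depended on the processing: that on Jun held in 8 of 20 alternatives at 10 min and in 13 of 20 at 60 min, and that on Junb in 11 of 20 at 10 min.

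In the crossed experiment Junb was the 1 of the 4 tested partners and relatives that rose. Its rise was 2.19 without nicotine (SE 0.22, adjusted p = 7.2e-05, limma) and 2.37 in nicotine (adjusted p = 4.4e-05), where 0.905% and 1.02% of all probe sets passed. During continuous NMDA 0 of 4 passed at any time with limma. There Junb was 1.43, 2.14, 2.50, 2.97 and 1.69 at the 5 times, with an SE of 0.82, and with the replicate block it passed at 180 min (adjusted p = 0.0165). Fosl2 was 1.96 at 180 min and 2.15 at 360 min, where Fos was also high, and did not pass. Jund and Fosl1, where tested, differed from control by less than 2-fold after NMDA and did not pass.

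In the first washed-out run Junb rose by 0.92 (adjusted p = 0.0207, limma) and Fosl2 by 0.81 (adjusted p = 0.0415). These were 2 of the 5 partners and relatives tested, where 13.9% of all probe sets passed. In the repeat run 0 of 5 passed. Fos itself had 0.78 in that first run, so the 3 genes had differences of like size there.

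Among 24 other immediate early genes listed, 5 were measured: Egr1, Nr4a1, Nr4a3, Crem and Ptgs2. At 60 min of continuous NMDA Egr1 rose by 2.29 (adjusted p = 0.0257) and Nr4a1 by 3.12 (adjusted p = 0.0378), where 0.679% of all probe sets passed, and at 180 min Nr4a1 rose by 3.26 (adjusted p = 0.0409), where 0.452% did. Those calls held in 11, 9 and 8 of 17 alternatives, and none was left with median centring. After each of the 3 pulses, where 2.26%, 1.36% and 1.58% of all probe sets passed, the same 3 of 5 rose: Nr4a1 by 2.76, 2.22 and 2.44, Crem by 2.42, 2.08 and 2.12, and Nr4a3 by 1.41, 1.45 and 1.57. Crem encodes modulators of cAMP-responsive transcription, among them repressors that act on CREB sites such as that of Fos. In the crossed experiment, where 0.905% and 1.02% passed, Nr4a1 rose by 2.45 without nicotine and by 2.36 in nicotine, and Egr1 rose in nicotine by 1.38 (adjusted p = 0.0279, limma). In the first washed-out run Nr4a1 rose by 1.12, Nr4a3 by 1.17 and Crem by 1.80. In that run 13.9% of all probe sets passed. In the repeat run, where 0.226% passed, Nr4a3 alone of the 5 rose, by 2.29 (adjusted p = 0.0356). These Nr4a3 values are from probe set rc_AI176710_at, and X86003_at gave 0.60 in that contrast. Within nicotine the first run had Nr4a1 up by 1.06 and Nr4a3 up by 1.44, where 2.04% passed.

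Of 31 genes of kinases and factors that act on the Fos promoter, 16 were measured and 12 to 15 tested in a run. Crem, which this list shares, was the 1 that rose, in the 3 pulses and in the first washed-out run, and 0 rose or fell in the continuous and crossed experiments, where at most 1.02% of all probe sets passed. The list median was -0.362, -0.17 and -0.356 after the 3 pulses, against -0.04, -0.06 and -0.11 over all probe sets, and 0.391 in the repeat washed-out run, against 0.00214. In the first washed-out run the probe set annotated to Map2k2, a MAP kinase kinase, fell by 0.42 (adjusted p = 0.0265), and its gene is uncertain because its source sequence is shared with Eef2.

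Of 22 genes described as AP-1 or CREB targets in neurons, 13 were tested after the pulses, and 3, 2 and 2 rose, against 2.26%, 1.36% and 1.58% of all probe sets; none fell. Bdnf, a neurotrophin, rose by 3.12, 2.68 and 2.90 after 10, 30 and 60 min, with an SE of 0.41. Penk, the enkephalin precursor, rose by 1.86, 1.74 and 1.83, with an SE of 0.39. Nptx2, a secreted synaptic pentraxin, rose by 2.29 after the 10 min pulse (adjusted p = 0.0368). In the continuous and crossed experiments 0 of 13 passed, where between 0 and 1.02% of all probe sets did. In the first washed-out run, against 13.9% of all probe sets, 2 of 13 passed: Bdnf rose by 1.68 and Nptx2 by 0.78, and Bdnf rose by 2.24 within nicotine.

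Motifs of AP-1 and CREB were looked for in the RefSeq promoters of these lists (GRCr8, from 250 bases before to 50 after a start, both strands). For AP-1 the letters searched were TGANTCA, with any base at N, and for CREB the palindrome TGACGTCA. The RefSeq table used here has no promoter entry for Fos, Jun, Nr4a3 or Penk, which were not searched. Of the other genes that rose, Bdnf had a match to the AP-1 letters in 1 of its 6 promoters, with A at N. Crem had CRE matches in 2 of its 3. They are shown because these were the genes with the largest rises after the pulses that had a match, with the matched motif in capitals, and were chosen after their values were seen.
Bdnf, AP-1, chr3:116621808-116621836, + strand: atccacaaaaaTGAATCAaggtaatttca
Crem, CRE, chr17:58984730-58984759, + strand: tgataggctggTGACGTCActgtgatgtca
Crem, CRE, chr17:58985444-58985473, + strand: gttcaaagggcTGACGTCAttacatttcct
Crem, CRE, chr17:58985518-58985539, + strand: gagctgcacatTGACGTCAgct

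The motifs do not overlap each other in these windows. Of all 33469 RefSeq promoters, 7.33% held the AP-1 motif and 1.83% the CRE. The promoters of Junb, Nr4a1, Egr1, Fosl1, Fosl2 and Nptx2 held neither set of letters, and that of Jund held the CRE. A match describes the letters only.

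Likeness to Fos was measured as the Pearson correlation of each gene's mean log2 difference from its own control with that of X06769cds_g_at, over the 17 treated groups and 465 genes. Each gene stood for whichever of its probe sets had the highest Pearson correlation, also in the rank correlation below. The 5 most alike were Nr4a1 (0.975), Junb (0.909), Nr4a3 (0.893), Jun (0.763) and Egr1 (0.761). The other Fos probe sets gave 0.993 and 0.978. Over all genes the median was 0.00254 and the middle of the distribution ran from -0.339 to 0.326. Groups of a run share their controls, so the points are not independent, and no p is given. By Spearman's rank correlation Nr4a1 (0.951), Junb (0.875), Nr4a3 (0.875), Fosl2 (0.767) and Egr1 (0.767) led, with Jun at rank 7.

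The 5 genes did not follow Fos in size at every point. Among the continuous times Nr4a1 exceeded Fos by most at 60 min, with 3.12 against 2.02. Egr1 had 2.29 at that time and 0.67 at 360 min, where Fos had 2.23. Nr4a3 on probe set X86003_at, the one most like Fos, had 0.95, 0.73 and 0.81 after the pulses, where Fos had 2.23, 1.96 and 1.77. In the nicotine and 4R groups without NMDA, Fos lay between -0.49 and 0.17.

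**Figure D5:**
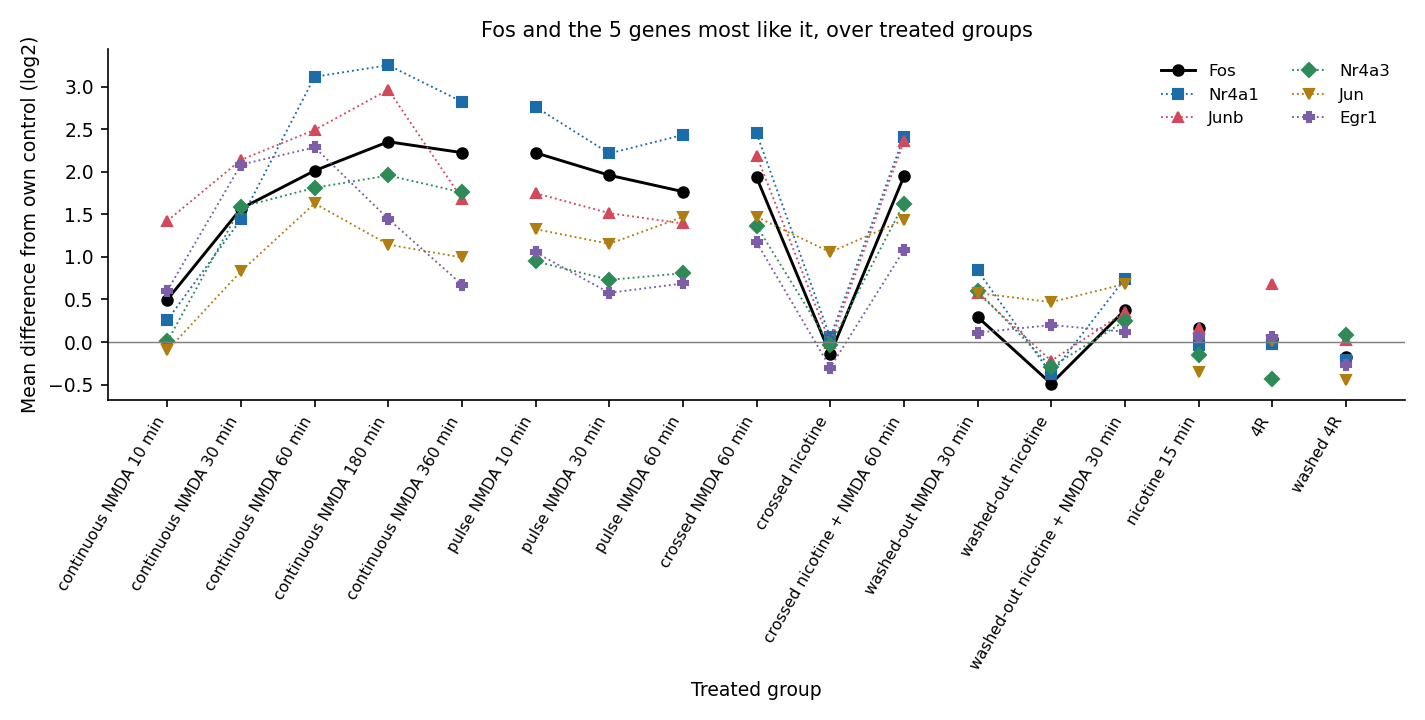
Mean log2 difference from the own control of Fos (X06769cds_g_at, solid) and the 5 genes most like it (dotted) in 17 treated groups, joined within a run. All 6 genes are above 0.5 in each group with 30 min or more of continuous NMDA, and in the 5 groups without NMDA they lie between -0.49 and 0.68 apart from Jun at 1.06 in crossed nicotine.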

How the data were processed

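RNA of primary rat cortical cultures was read on 112 arrays, whose control probe sets carry Affymetrix names. The deposited values are probe set intensities that the authors had scaled so that the trimmed mean (2% off each end) lies between 2503 and 2513 on every array; the scaling is read from the values, and the sources used here do not name the software. Labels gave every group. Log2(signal + offset) was analysed within each run, the offset being the 10th percentile of the run's positive values. Of 1263 probe sets, the 884 above the 30th percentile of mean signal were tested by linear models in limma (version 3.58.1, R 4.3.3; all groups of a run, intensity trend, Benjamini-Hochberg adjustment over all tested, threshold 0.05), checked on simulated data. Fold changes are on that log2 scale. Labels do not always say that samples were separate cultures, so p-values measure only the spread between these samples, which may be technical, and the number of arrays limits precision.

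The members and lists were chosen with earlier results of these data known. Every NMDA-against-control difference of Fos is therefore given without a test, also after washing out, where a test had been planned. Named were every Fos probe set, AP-1 partners and relatives that passed or reached 2-fold, other list genes that passed, and the 5 genes most like Fos. Replicate numbers pair samples in the continuous run (all 45 same-number correlations above 0.1), in the 4R run (3 of 3), and in the pulse and crossed runs by the dates in their labels. Alternatives were the offset at the 5th and 20th percentile, other filters, median centring, quantile normalization, a replicate block, only the groups compared, no intensity trend, other probe sets, the first washed-out run or the mean of both, repeat arrays averaged in, and leaving out each array or those that stood apart.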

Additional observations from a re-analysis of the deposited data

Results flagged for a closer look

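Of 36 combinations of a Fos probe set and a group of 4 or 5 arrays, 6 had an array far from the rest, where chance gives about 1 in 20. In the pulse experiment this was replicate 1 of the 10 min pulse, at 34052 on X06769cds_g_at. In the first washed-out run it was control 4 at 3911 and nicotine replicate 4 at 4143 on X03347cds_g_at, and nicotine replicate 4 at 2718 on X06769cds_at. In the repeat run it was control 4 at 7051 on X06769cds_at and nicotine replicate 4 at 9821 on X06769cds_g_at. Thus 5 of the 6 were replicate 4 of the washed-out experiment.

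Arrays outside the comparisons gave Fos signals above the 5667 of the highest first-run pulse control; the repeat arrays had no controls of their own. The repeat arrays of pulse samples read 16748 (the same reading as its first array) and 12669 for the 10 min pulse, 9559 for the 30 min pulse and 9728 for the 60 min pulse. In the second pulse set the signals were 12883, 11854 and 10483 after 10, 30 and 60 min, against 2361 in its control.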

How the results depend on the processing

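Of 601 alternative values for Fos, 550 kept their direction and call, or moved by less than the replicate spread. Without the arrays that stood apart, continuous NMDA at 10 min became 0.94. The other probe sets moved the NMDA differences upward: X03347cds_g_at gave 2.38, 2.69, 3.33 and 2.88 at 30 to 360 min, 3.10, 2.65 and 2.72 after the pulses and 2.67 and 2.73 in the crossed experiment, and X06769cds_at gave 1.15, 2.64, 3.23, 3.60 and 3.33 at 10 to 360 min, 2.41 and 2.33 after the longer pulses and 2.99 and 2.77 crossed. Washed-out NMDA turned to -0.13 under quantile normalization and was 0.78 in the first run. Signs also turned for 360 against 180 min (0.31 without the arrays that stood apart), pulse 60 against 30 min (0.069 on X03347cds_g_at), crossed nicotine (0.10 on X06769cds_at), nicotine within NMDA (-0.049 with median centring, -0.13 on X06769cds_at), the crossed interaction (-0.22 on X06769cds_at), washed-out nicotine (0.091 without the arrays that stood apart, 0.14 in the first run), the washed-out interaction (-0.011 and -0.013) and 4R (-0.10 on X03347cds_g_at, -0.41 on X06769cds_at). The cause was not tested. Leaving out 1 array at a time gave -0.012 to 1.02 for 180 against 60 min, -0.81 to 0.31 for 360 against 180 min, -0.50 to 0.0092 and -0.45 to 0.041 for the pulse steps, -0.065 to 0.12 for crossed and -0.061 to 0.24 for washed-out nicotine within NMDA, and -0.18 to 0.25 for 4R.

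With the replicate block in limma the 30 against 10 min step kept 1.07 (adjusted p = 0.157). Beyond the Junb calls given above, the block alone changed no call on Fos. Nor did it change another call on the list genes that were followed, which had passed or, among AP-1 partners and relatives, reached 2-fold. List genes that had not passed were otherwise not followed under the block. With the replicate block and without the arrays that stood apart, 360 against 180 min was 0.11, washed-out NMDA in nicotine was 0.87 and the washed-out minus pulse difference -1.28. In the first and repeat washed-out runs 24 and 19 of 30 same-number correlations were above 0.1, a hint of pairing in the data that no label states.

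Of 28 calls on list genes, 11 held in every alternative run and 17 were lost in at least 1. Counts over all probe sets moved too: continuous NMDA at 60 and 180 min had 6 and 4 calls, 0 with median centring and 11 each without the arrays that stood apart; the 30 and 60 min pulses had 12 and 14, and 20 and 23 with the replicate block; repeat-run washed-out NMDA had 2, 16 without the arrays that stood apart and 123 in the first run.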
